A study of Mus musculus with 6 samples.

Results

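p53 and the genes it switches on were followed in the livers of mice that lacked the endosomal adaptor p14. The members were 10 genes, Trp53 itself and its targets Mdm2, Zmat3, Cdkn1a, Ccng1, Bax, Bbc3, Sesn1, Phlda3 and Trp53inp1, each read from probe sets that the array annotation pairs with that symbol alone. Of the 10, 8 had such probe sets, 17 in all, and were among the 18193 genes with a probe set. No probe set was paired with Trp53 or Bax in the annotation used, so these 2 were not analysed here. Expression was measured on 6 Affymetrix arrays, 1 per liver, as log2 values. KO livers came from 3 male C57BL/6 mice, 6 weeks old, with a conditional liver knockout of p14, and WT livers from 3 male C57BL/6 control mice of the same age, labelled p14 WT. The labels do not name the Cre line or the floxed allele, nor whether the controls carried either. p14 is encoded by Lamtor2, a subunit of the Ragulator complex that holds mTORC1 and MEK signalling on late endosomes. Each difference below is the KO mean less the WT mean, in log2 units.

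p53 is a transcription factor that is held at low levels by the ubiquitin ligase Mdm2 and accumulates after DNA damage, ribosomal stress or oncogene signalling. It binds a response element made of a pair of similar half-sites and raises genes that stop the cell cycle, repair DNA, trigger apoptosis or limit growth, as well as Mdm2, which closes a feedback loop. In unstressed liver its targets run at a basal level, and in regenerating or damaged liver p21, the product of Cdkn1a, limits hepatocyte division. p21 also keeps the pocket protein complex DREAM on the promoters of mitotic genes, which links p53 to their repression.

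The promoters of the targets are shown first because the response element is what joins these genes into one group. RefSeq promoter windows (GRCm38.p6) of 300 bases, 250 of them before the transcription start, were matched for 8 of the 10 genes, in 12 windows. A response element was counted as 2 half-sites of 10 bases with 0 to 13 bases between them, and each half-site kept its fixed C and G. The consensus reads the same on both strands. A match with no mismatch was present in 0.0731% of all 32851 windows and one with at most 2 mismatches in 4.09%. Among the 12 windows 4 held a match with at most 2 mismatches, in Cdkn1a, Ccng1, Bax and Sesn1. Capitals mark the matched element in the first 4 sequences and a single half-site in the last. The Cdkn1a element, at chr17:29090906-29090937 (plus strand), had 0 mismatches and a spacer of 12 bases. Only the match with the fewest mismatches was marked in a window, so others, also with a shorter spacer, are not marked. In Cdkn1a the 10 bases right after the marked element also hold the fixed C and G of a half-site, with no spacer before them. The Ccng1 element, at chr11:40755462-40755481 (minus strand), had 1 mismatch, and the Sesn1 element, at chr10:41887253-41887275 (plus strand), had 2. Bbc3 held matches with 3 mismatches in 2 of its windows, as 15.6% of all windows do at that limit, and the one shown is at chr7:16309486-16309505 (plus strand). Mdm2 held a half-site without mismatch, as 8.36% of windows do, and no full element with fewer than 4 mismatches in this window.
Cdkn1a: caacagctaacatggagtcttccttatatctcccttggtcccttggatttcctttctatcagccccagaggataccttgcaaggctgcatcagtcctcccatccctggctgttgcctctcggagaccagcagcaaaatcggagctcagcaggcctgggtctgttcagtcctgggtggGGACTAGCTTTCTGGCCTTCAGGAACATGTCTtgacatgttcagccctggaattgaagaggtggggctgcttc
Ccng1: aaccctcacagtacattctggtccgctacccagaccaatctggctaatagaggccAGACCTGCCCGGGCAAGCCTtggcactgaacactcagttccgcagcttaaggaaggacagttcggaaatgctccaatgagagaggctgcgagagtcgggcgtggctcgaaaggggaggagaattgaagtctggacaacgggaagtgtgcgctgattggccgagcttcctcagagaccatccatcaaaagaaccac
Sesn1: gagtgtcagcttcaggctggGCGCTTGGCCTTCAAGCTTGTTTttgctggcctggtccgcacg
Bbc3: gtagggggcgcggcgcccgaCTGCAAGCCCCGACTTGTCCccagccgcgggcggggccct
Mdm2: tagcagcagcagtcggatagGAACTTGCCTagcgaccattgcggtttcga
The Sesn1 window belongs to the second of its start sites, the Bbc3 window to the first of 3 and the Cdkn1a window to the first of 2. The best match in the other Cdkn1a window had 5 mismatches. A match describes letters in a window and is neither a bound site nor a cause, and elements elsewhere in these genes lie outside the windows.

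Lamtor2, the targeted gene, measured 10.08, 10.19 and 10.11 in KO and 11.32, 11.29 and 11.35 in WT, a difference of -1.19 ± 0.06 (SE, n = 3 per group), with a limma adjusted p of 0.0104. That adjusted p ranged from 0.00381 to 0.116 over the alternatives, and it missed the threshold without KO 2 (0.0691), WT 1 (0.114), WT 2 (0.114) or WT 3 (0.0505), while the difference stayed between -1.23 and -1.17. KO 3 stood between the other KO livers and the controls in several measures below, and WT 2 carried skeletal muscle transcripts: Mylpf, a muscle myosin light chain, measured 12.41 there and 3.92 to 4.15 on the other arrays.

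Most of the measured p53 targets were lower in KO livers, and none passed the threshold across all genes. Of 8 genes 6 were lower, where 58.4% of all genes tested were, and 2, Bbc3 and Sesn1, were higher, with a median difference of -0.42 beside -0.04 over the 10009 genes tested. At a Benjamini-Hochberg adjusted p under 0.05 in limma, 0 of 8 were called, where 0.170% of all genes were. At an unadjusted p under 0.05 in limma, 4 of 8 were lower (Zmat3, Mdm2, Cdkn1a and Phlda3), where 10.1% of all genes were, and 0 of 8 were higher, where 4.32% were. In 5 of 8, which adds Ccng1, all 3 KO values lay below all 3 WT values, against 14% of all genes, and in 0 of 8 above, against 6.54%. All 8 passed the filter, which asks for a signal of 4 (log2) or more on 3 or more arrays, but Phlda3 did so through the WT arrays, with 1 of 3 KO arrays at that level. In whole liver, fewer cells of a type and less RNA per cell cannot be told apart.

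**Figure D1:**
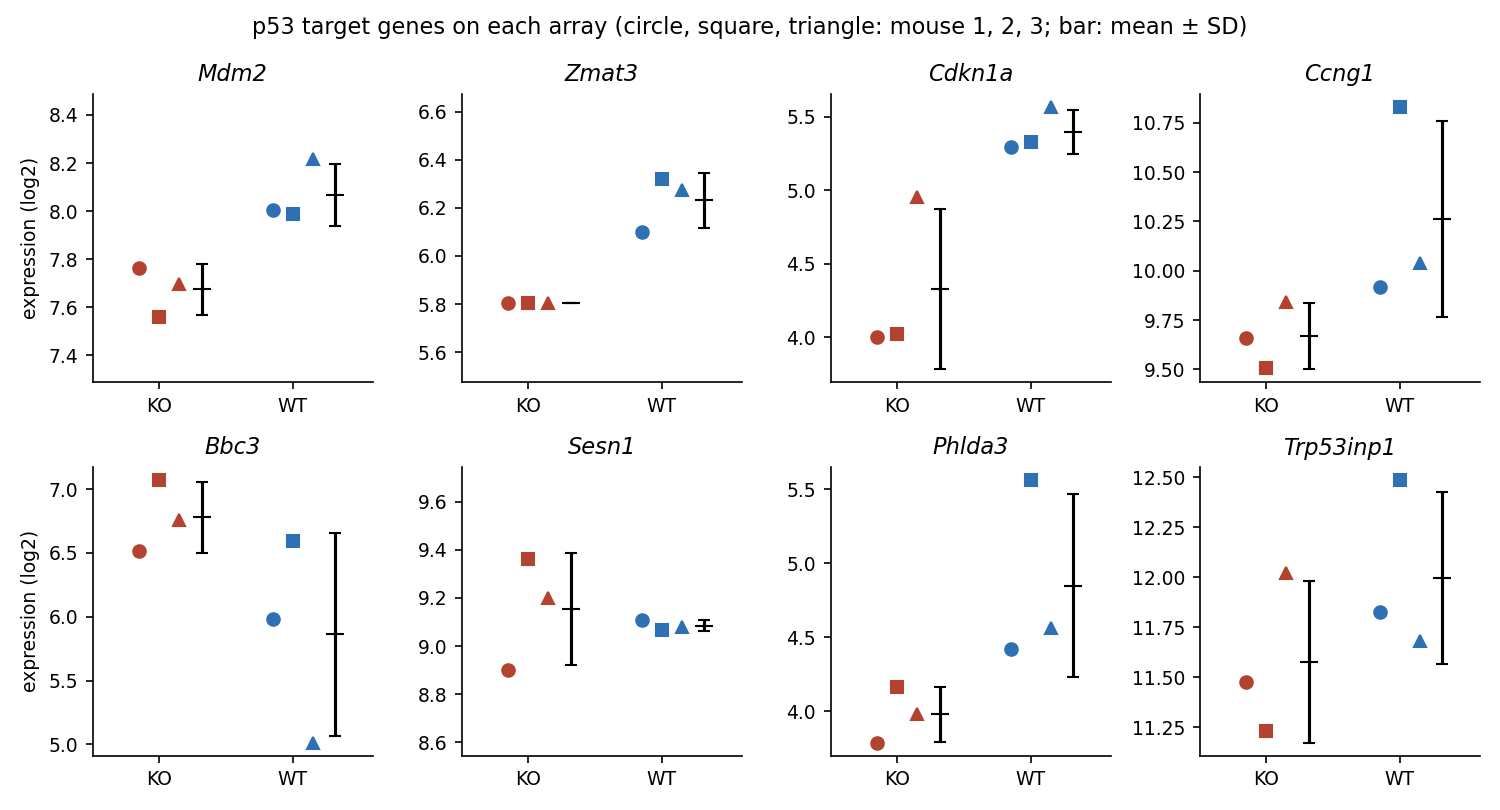
Expression (log2, vertical axis) of the 8 measured p53 target genes on each array, KO in red and WT in blue, with circle, square and triangle for mice 1, 2 and 3 and a black bar for the mean ± SD. Each panel has its own axis; KO and WT points do not overlap for Mdm2, Zmat3, Cdkn1a, Ccng1 and Phlda3.

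Mdm2, the ligase that marks p53 for degradation and is itself a p53 target, measured 7.77, 7.56 and 7.70 in KO and 8.0, 7.99 and 8.22 in WT. The groups did not overlap. The difference was -0.39 ± 0.10 (SE, n = 3 per group), and the KO signal was 76.1% of that in WT. In limma the unadjusted p was 0.00701 and the adjusted p 0.231. Its next probe set did not separate the groups, at 7.83, 7.57 and 7.78 in KO and 7.67, 7.99 and 7.88 in WT, a difference of -0.12 with an exact permutation p of 0.4. The third probe set of Mdm2 lay near 2.2 on every array. With the probe sets averaged the difference was -0.17, so the size for Mdm2 depends on the probe set. Mdm4, the partner of Mdm2 in holding p53 down, measured 7.44 in KO and 7.40 in WT; it was chosen after its values were seen.

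Zmat3, a zinc finger protein that binds RNA and acts in tumour suppression downstream of p53, had the smallest unadjusted p of the 8. It measured 5.80 on each of the 3 KO arrays and 6.10, 6.32 and 6.27 on the WT arrays, a difference of -0.43 ± 0.08 (SE, n = 3 per group). The unadjusted p in limma was 0.00172 and the adjusted p 0.166, with a range of 0.127 to 0.375 over the alternatives. The KO values were tied, as in 1.17% of all genes tested. The spread between these 3 mice was thus not measured, and the SE rests on the WT arrays and on the other genes. A tie can be a floor that background subtraction leaves for a probe set, which was not tested. In that case the KO level was not measured either, and the difference is a bound.

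Ccng1, cyclin G1, which brings the phosphatase PP2A to Mdm2, measured 9.66, 9.51 and 9.84 in KO and 9.92, 10.83 and 10.04 in WT. KO 3 and WT 1 lay close together, and WT 2 stood well above the other 5 arrays. The difference was -0.59 ± 0.26 (SE, n = 3 per group; limma adjusted p = 0.358) and -0.31 without WT 2. Both further probe sets separated the groups too, at -0.35 and -0.46, each with an exact permutation p of 0.1, the smallest that 3 against 3 arrays allow.

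Cdkn1a, which encodes the cyclin-dependent kinase inhibitor p21 and has the match without mismatch shown above at one of its start sites, had the lowest difference of the 8. It measured 4.0, 4.03 and 4.95 on the KO arrays and 5.29, 5.33 and 5.57 on the WT arrays. KO 1 and KO 2 were at the level used as the filter and KO 3 lay between them and the controls. The difference was -1.07 ± 0.28 (SE, n = 3 per group), or 47.7% of the WT signal, with a 95% interval of -1.75 to -0.38. In limma the unadjusted p was 0.00913 and the adjusted p 0.243. Without KO 3 the difference was -1.38 and Cdkn1a was called, with a limma adjusted p of 0.0267. Over the 16 of 18 alternatives in which Cdkn1a was tested, that p ran from 0.0267 to 0.582. It did not pass the filter when this asked for at least 6, nor with probe sets averaged. The other probe set of Cdkn1a lay below 4 on every array and gave no measure of the gene.

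Neither inhibitor related to p21 was called. Cdkn1b, which encodes p27, measured 7.92 in KO and 7.82 in WT (limma adjusted p = 0.678; a difference of 0.10, and of 0.01 without KO 1). Cdkn1c, which encodes p57 and was chosen after its values were seen, measured 4.18 and 4.81 (limma adjusted p = 0.3). A list held 22 cyclins, cyclin-dependent kinases, their inhibitors and pocket proteins, of which 20 were tested. Of the 20, 18 had the lower mean in KO, where 58.4% of all genes tested did. The median difference was -0.26. None was called in limma, where 0.170% of all genes were. At an unadjusted p under 0.05 in limma 9 were lower, where 10.1% of all genes were, and 0 were higher, where 4.32% were. Ccna2, cyclin A2 of S phase and mitosis, was below 4 on every KO array and at least 2.08-fold lower than its WT mean of 5.05 (limma adjusted p = 0.12). It passed the filter through the WT arrays alone, which fixed its direction, so its place among the lower genes is no separate result. Without KO 3 Ccna2 was called, at a limma adjusted p of 0.0365. With values floored at 4 its difference was -1.05 (limma adjusted p = 0.195). Rbl1, the pocket protein p107, differed by -0.75 (limma adjusted p = 0.255) and Rbl2, the pocket protein p130, by 0.12.

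Genes that the p53, p21 and DREAM route is known to repress were lower in KO, as Cdkn1a was. In that route p21 acts to hold these genes down. The arrays measured neither p21 protein nor DREAM binding, and the part of the route in these values was not tested. Of 20 listed genes 9 were tested, and all 9 were lower, where 58.4% of all genes were. In 3 of them every KO array was below 4, so that passing the filter through the WT arrays fixed their direction. In limma 4 were called, where 0.170% of all genes were. Among them were Top2a, the topoisomerase of dividing cells, lower by 2.88 (adjusted p = 0.0275), and Aurka, a mitotic kinase, at least 2.02-fold lower (adjusted p = 0.00114). Kif20a, a mitotic kinesin, was at least 1.67-fold lower (adjusted p = 0.0163) and Nuf2, of the kinetochore, at least 1.47-fold lower (adjusted p = 0.0411). Aurka, Kif20a and Nuf2 are the 3 whose direction the filter fixed. Birc5, Ccnb2 and Top2a each reached 4 on 1 of 3 KO arrays, so they too passed the filter through the WT arrays. That favours a lower KO mean, so the shared direction of the 4 called genes is no separate result. With values floored at 4 the difference of Top2a was -2.42. Floored in the same way, Nuf2 differed by -0.56 and was not called (limma adjusted p = 0.241), while Aurka, Kif20a and Top2a still were. Without KO 3 all 4 were called in limma. Leaving out any of the other 5 arrays ended the calls of Top2a and Nuf2, and leaving out KO 2, WT 1, WT 2 or WT 3 ended that of Kif20a. Aurka was called with each single array left out. With KO 3 and WT 2 both left out, Aurka, Kif20a and Nuf2 were not called (limma adjusted p = 0.06 each). The mean of the 9 was 3.38 on KO 1, 3.50 on KO 2, 4.57 on KO 3 and between 6.40 and 6.68 on every control array. KO 3 lay nearer to the controls than the other KO arrays did, as it did for Cdkn1a.

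**Figure D2:**
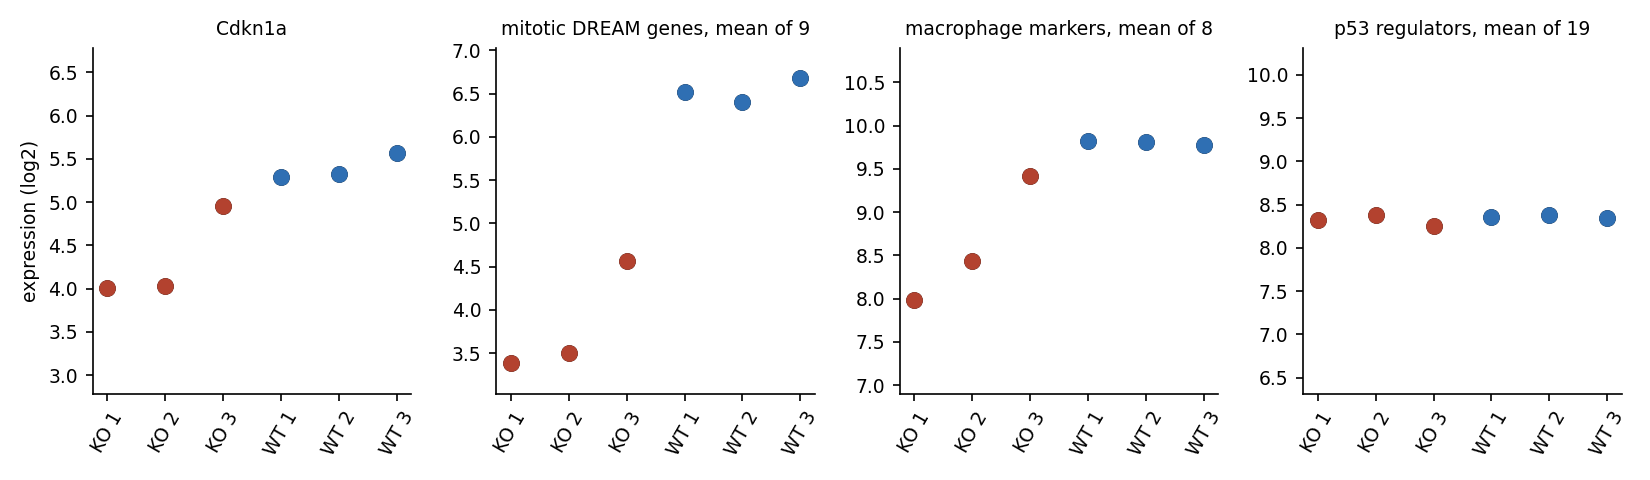
Expression (log2, vertical axis, a span of the same size in each panel) on each of the 6 arrays for Cdkn1a, the mean of 9 mitotic DREAM genes, the mean of 8 macrophage markers and the mean of 19 p53 regulators, KO in red and WT in blue. KO 3 lies between KO 1 and KO 2 and the WT arrays in the first 3 panels, and the p53 regulators stay between 8.25 and 8.38 on all arrays.

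Over the 6 arrays, the genes most like Cdkn1a by Pearson's r among all genes tested were Cdc20 (0.996), the activator of the anaphase-promoting complex, Mcm7 (0.995), a subunit of the replicative helicase, and Pld4 (0.995). Most like Mdm2 were Rnd3 (0.992), Mta2 (0.990) and Hint1 (0.988). These values describe 6 points that fall into the KO and WT groups, are the highest of about as many pairs as there were genes, and carry no test.

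Bbc3, which encodes the BH3-only protein PUMA that starts apoptosis by freeing Bax and Bak, had the highest difference of the 8. It measured 6.51, 7.07 and 6.76 in KO and 5.98, 6.59 and 5.01 in WT. The groups overlapped, since WT 2 lay above KO 1, and the WT values spread more widely than the KO values. The difference was 0.92 ± 0.41 (SE, n = 3 per group), with a 95% interval of -0.10 to 1.94 and a limma adjusted p of 0.367. It was 0.49 without WT 3, the lowest array, and 1.28 without WT 2.

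Among 19 further genes of the BCL-2 family and the apoptosome, 14 were tested. Of these 9 had the higher mean in KO and 5 the lower, where 58.4% of all genes had the lower. The median difference was 0.02, and none was called in limma, where 0.170% of all genes were. At an unadjusted p under 0.05 in limma 0 were lower, where 10.1% of all genes were, and 2 higher, where 4.32% were. Both of the 2 encode BH3-only proteins like Bbc3, as do Bad, Bid and Bcl2l11 of the same list, whose groups overlapped. Bid differed by -0.07 (limma adjusted p = 0.946) and Bcl2l11 by 0.28 (limma adjusted p = 0.499). Bid and Bcl2l11 were chosen after their values were seen. Bmf measured 7.89, 8.15 and 8.05 in KO and 7.21, 6.74 and 5.86 in WT, a difference of 1.43 ± 0.34 (SE, n = 3 per group; limma adjusted p = 0.226). Bik measured 5.85, 5.95 and 5.84 in KO and 5.42, 5.07 and 4.74 in WT, a difference of 0.80 ± 0.17 (SE, n = 3 per group; limma adjusted p = 0.204). In both genes all KO values lay above all WT values, as in 6.54% of all genes. With the probe sets of each gene averaged, Bmf differed by 0.48. Bok, a pore-forming relative of Bax, differed by -0.14 and Bad by -0.05.

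Phlda3, which binds membrane lipids and blocks Akt, measured 3.79, 4.16 and 3.98 in KO and 4.42, 5.56 and 4.56 in WT. WT 2 was again the highest array. The difference of -0.87 ± 0.32 (SE, n = 3 per group) had an unadjusted p of 0.0353 and an adjusted p of 0.321 in limma, and it was -0.51 without WT 2. With 2 KO values below 4 it is a difference between dim signals.

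Trp53inp1, a stress protein that promotes p53 phosphorylation and also acts in autophagy, measured 11.48, 11.23 and 12.02 in KO and 11.83, 12.49 and 11.68 in WT. The groups overlapped, with KO 3 above WT 1 and WT 3. The difference of -0.42 had a 95% interval of -1.14 to 0.30 (limma adjusted p = 0.517) and was -0.18 without WT 2. The further probe set showed the same order of arrays within KO and a difference of -0.28.

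Sesn1, sestrin 1, which holds back mTORC1 through the GATOR complexes that act on the Rag GTPases beside Ragulator, measured 8.90, 9.36 and 9.20 in KO and 9.11, 9.06 and 9.08 in WT. The WT values lay within the KO range. The difference was 0.07 with a 95% interval of -0.24 to 0.38 (limma adjusted p = 0.801), and it was -0.03 without KO 2. The further probe sets differed by 0.19, 0.33 and 0.23, the last of them below 4 on every array. Sesn2, the related sestrin, measured 6.68, 6.16 and 6.07 in KO and 5.93, 6.10 and 5.99 in WT. The groups overlapped, and the difference was 0.30 (limma adjusted p = 0.456), or 0.11 without KO 1.

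**Figure D3:**
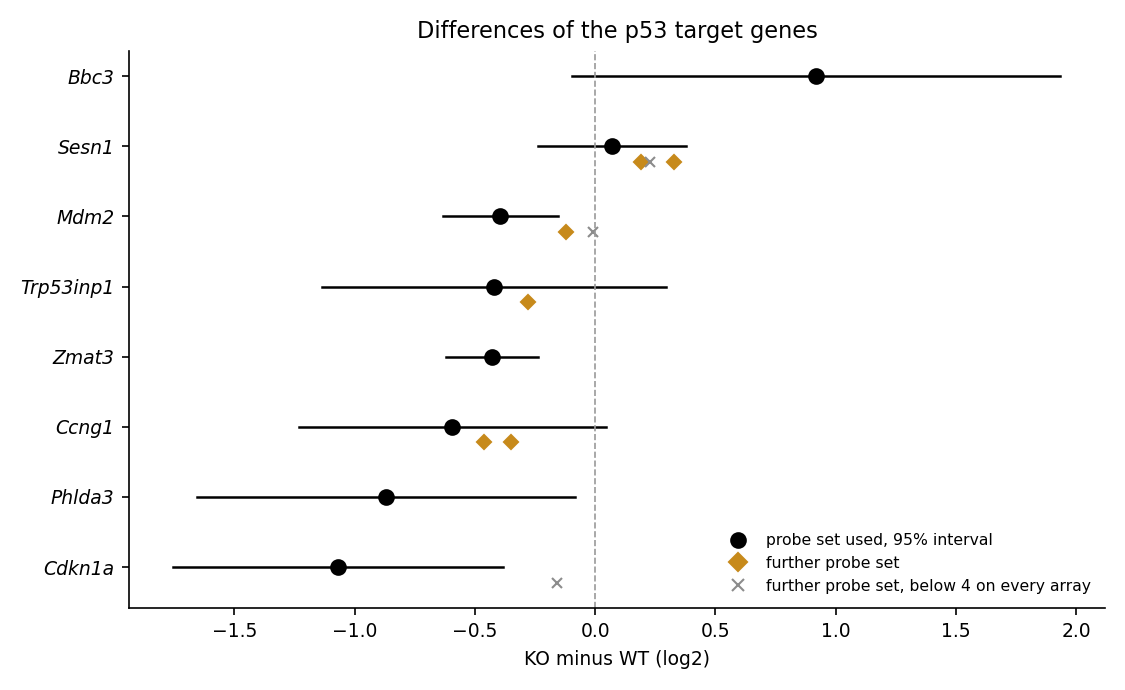
Difference between KO and WT (log2, horizontal axis) for each of the 8 genes, with a black dot and line for the probe set used and its 95% interval, orange diamonds for further probe sets and grey crosses for further probe sets below 4 on every array. The intervals of Cdkn1a, Phlda3, Zmat3 and Mdm2 lie below 0, and the further Mdm2 probe set at -0.12 lies nearer to 0 than the one used.

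Of the 9 further probe sets of these genes 6 passed the filter, and all 6 had the direction of the probe set used. The other 3 lay below 4 on every array.

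Other direct p53 targets were taken from a list. Of 30 listed genes 29 had a probe set and 22 were tested. In KO 15 of these had the lower mean, where 58.4% of all genes did, and 7 the higher. The median was -0.12, beside -0.04 over all genes. None was called in limma, where 0.170% of all genes were. At an unadjusted p under 0.05 in limma 4 were lower, where 10.1% of all genes were, and 0 higher, where 4.32% were. Ckap2, a spindle protein, measured 3.73, 4.32 and 4.34 in KO and 5.79, 5.81 and 6.37 in WT, a difference of -1.86 (limma adjusted p = 0.0918). With values floored at 4 it was called, at a limma adjusted p of 0.046. Ckap2 peaks in dividing cells and differed in the same direction as the mitotic genes above. Apaf1, the scaffold of the apoptosome, measured 4.49, 4.69 and 4.46 in KO and 5.08, 5.23 and 5.19 in WT, a difference of -0.62 (limma adjusted p = 0.117). Triap1, an inhibitor of the apoptosome, differed by 0.15 (limma adjusted p = 0.511), or by 0.05 without WT 1 and 0.23 without WT 3. Gadd45a, of the DNA damage response, differed by -0.56, the phosphatase gene Ppm1d by 0.27, the death receptor gene Fas by 0.01 and the antiproliferative gene Btg2 by 0.23; these 4 were chosen after their values were seen, and none was called.

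None of the regulators of p53 was called in limma, where 0.170% of all genes were. Of 26 listed genes 19 were tested, 11 lower, where 58.4% of all genes were, and 8 higher. Their median difference was -0.05. At an unadjusted p under 0.05 in limma 4 of 19 were lower, where 10.1% of all genes were, and 0 were higher, where 4.32% were. Atm, the kinase that activates p53 after DNA breaks, was chosen after its values were seen and measured 7.69, 8.27 and 6.18 in KO and 6.15, 8.07 and 6.09 in WT. Its groups overlapped, and the difference was 0.61 (limma adjusted p = 0.71). Usp7, the deubiquitinase that stabilises Mdm2 and p53, measured 10.13, 10.02 and 10.12 in KO and 10.45, 10.27 and 10.37 in WT, a difference of -0.27 (limma adjusted p = 0.25), and of -0.09 with its probe sets averaged. Ep300, an acetyltransferase that acts as a p53 coactivator, differed by -0.28 (limma adjusted p = 0.317), and Kat5, the acetyltransferase Tip60, by 0.25 (limma adjusted p = 0.405), or by 0.09 with its probe sets averaged and 0.16 without KO 2. Trp53bp2, which encodes the p53-binding protein ASPP2, differed by 0.19 (limma adjusted p = 0.471), or by 0.09 without WT 3.

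**Figure D4:**
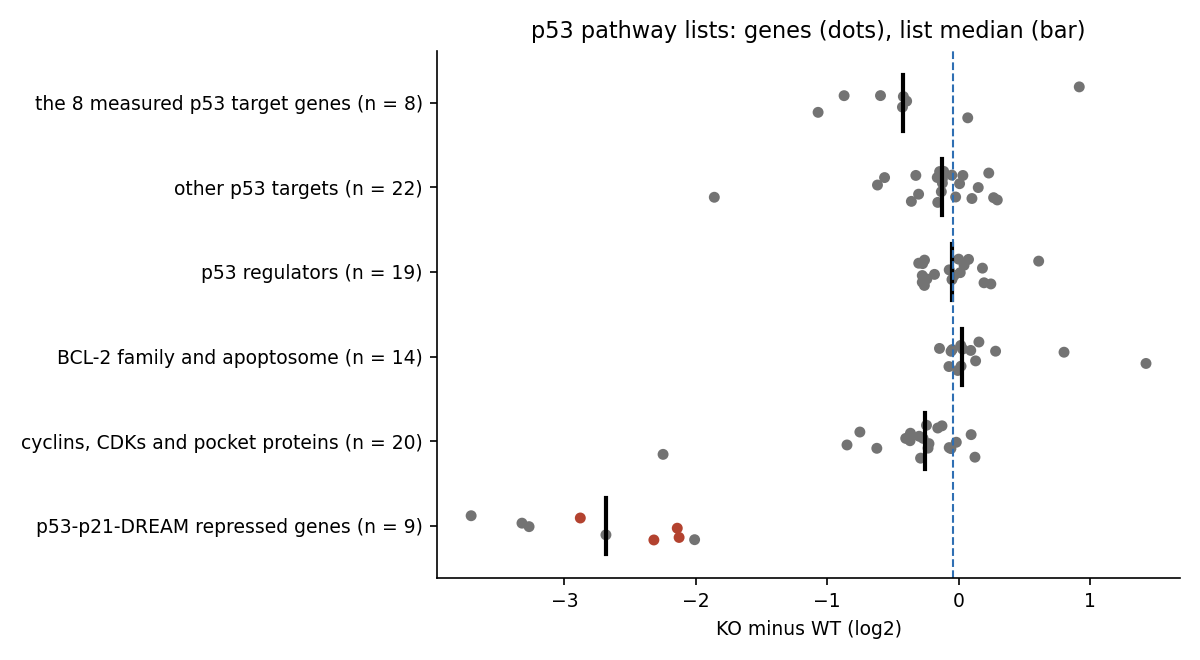
Difference between KO and WT (log2, horizontal axis) for each tested gene of 6 lists, with red dots for genes at a limma adjusted p under 0.05, grey dots for the others, black bars for list medians and a dashed line for the median of all genes tested at -0.04. The 8 measured p53 target genes have a median of -0.42, the other p53 targets -0.12 and the DREAM genes, which hold the 4 red dots, -2.68. Of the DREAM genes 3 were below 4 on every KO array. Passing the filter through the WT arrays favours a lower value, so the median of that list is not comparable in size with the others.

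Individual mice shaped several of these values. WT 2 was the highest WT array for 5 of the 8 genes, Zmat3, Ccng1, Bbc3, Phlda3 and Trp53inp1, and stood 0.57, 0.73, 0.71 and 0.49 above the WT mean for Ccng1, Bbc3, Phlda3 and Trp53inp1. For Bbc3, which was higher in KO, the difference was larger without WT 2, at 1.28. On that array 6 of 6 skeletal muscle markers reached at least 7.79, while 5 of them were below 4 on every other array; the part of muscle RNA in these values was not tested. The median difference of the 8 was -0.35 without WT 2, -0.53 without KO 3 and -0.40 with both left out. Without WT 2, all KO values of Bbc3 lay above both remaining WT values, with an unadjusted p of 0.0156 and an adjusted p of 0.307 in limma. With both left out, none of the 8 was called in limma.

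**Figure D5:**
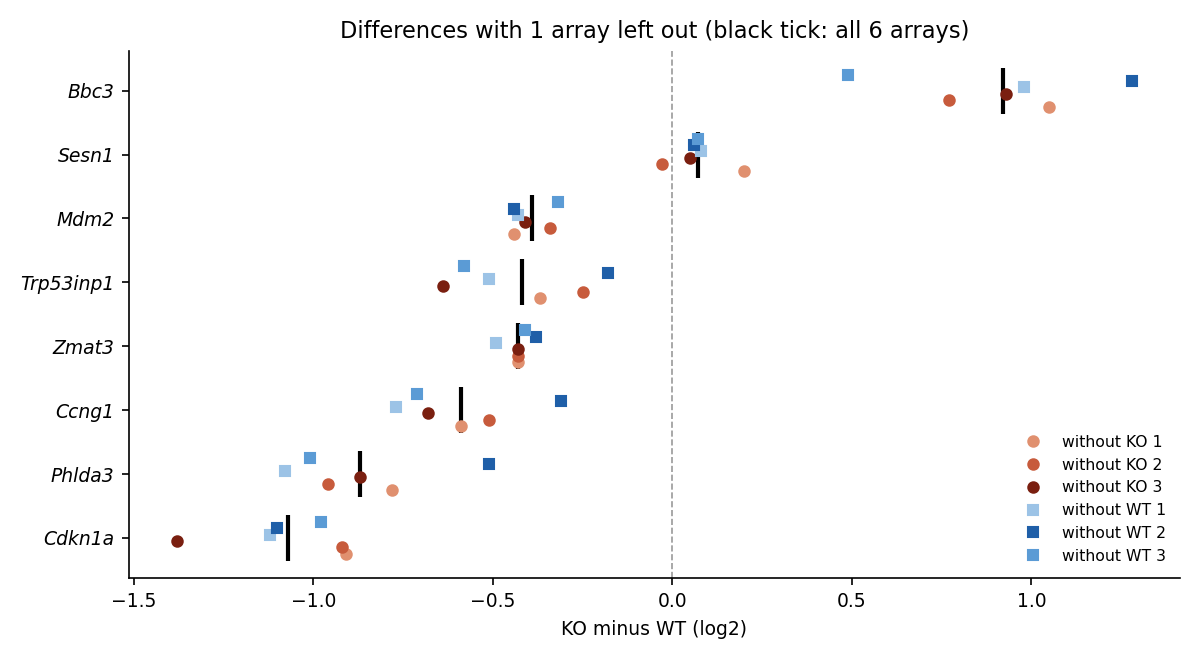
Difference between KO and WT (log2, horizontal axis) for each of the 8 genes with all 6 arrays (black tick) and with 1 array left out (circles for KO arrays, squares for WT arrays). Ccng1, Phlda3 and Trp53inp1 move towards 0 without WT 2, Cdkn1a moves away from 0 to -1.38 without KO 3, and Sesn1 crosses 0 without KO 2.

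Other measures differed between the same groups. The marker counts here stand beside 58.4% of all genes tested with the lower mean in KO. Macrophage markers were lower in 8 of 8 genes, with list means of 7.98 to 9.42 in KO and 9.78 to 9.82 in WT, and endothelial markers in 6 of 7, with 8.37 to 8.87 in KO and 9.07 to 9.27 in WT. On KO 3 the macrophage mean was 9.42, nearer to WT than on KO 1 and KO 2, the order seen for Cdkn1a. Stellate markers were lower in 5 of 6 and overlapped between the groups. Hepatocyte markers were lower in 6 of 6, at 15.16 to 15.20 in KO and 15.25 to 15.30 in WT. Of the lymphocyte, neutrophil and cholangiocyte lists only 1, 2 and 1 genes passed the filter, and Cd3e, Cd79a, Mpo and Krt19 were below 4 on every array. The probe sets for 18S rRNA differed by 0.80, and the 3 prime minus 5 prime signal of pyruvate carboxylase, a control for RNA integrity, by -0.95, each with an exact permutation p of 0.1. The part of these measures in the p53 target values was not tested.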

How the data were processed

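Liver RNA of 3 KO and 3 WT mice, 1 array each, was analysed from log2 expression values per probe set that the authors deposited, for which the submitters' processing notes name GCRMA (version 2.16.0) run in R (version 2.9.1). The log2 scale was read from the values, array medians were 2.88 to 2.92, and further settings are not given in the sources used here. GCRMA subtracts background, so dim values bunch at a floor. The 34945 probe sets with 1 symbol gave 18193 genes, each read from its brightest probe set over all arrays, and 10009 had at least 4 on 3 or more arrays. KO and WT were compared in limma 3.58.1 (R 4.3.3; lmFit, eBayes, two-sided, no covariates) with Benjamini-Hochberg adjustment over all genes, and single values by an exact two-sided permutation test. The fit was tested on simulated data. The members and the gene lists were chosen with earlier results of these data known. Named genes were the members, Lamtor2, up to 4 called genes per list, or with none called the 2 with the smallest p in each direction, and the 3 genes most like Cdkn1a and Mdm2; those chosen otherwise are marked. Mice count as biological replicates per the labels. Alternatives covered filter, normalisation, probe sets, floor, variance model, array weights, replicate block and arrays left out. Averages over probe sets took all those of a gene, dim ones too. Figures used matplotlib 3.10.9.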

Additional observations from a re-analysis of the deposited data

How the results depend on the processing

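Of 141 values of the 8 p53 targets under 18 alternatives, 139 kept their direction and their side of the limma threshold. The exceptions were Cdkn1a, called without KO 3, and Sesn1, whose difference ran from -0.03 to 0.20 with 1 array left out. None of the 8 was called with the main settings, so keeping a side meant staying uncalled and says little about size. With 1 array left out Trp53inp1 ran from -0.64 to -0.18 and Ccng1 from -0.77 to -0.31, and Mdm2 was -0.17 with probe sets averaged. The number of the 8 called was 0, or 1 without KO 3, and their median difference lay between -0.53 and -0.35. With a filter of at least 6 on 3 arrays, 6 of the 8 were tested and 2 were lower at an unadjusted p under 0.05 in limma. At that filter 1281 of all 8466 genes tested had such a p, in either direction. Of the 6, 3 were lower with groups apart, and the share of all genes with groups apart at that filter was not counted. Over all genes, 17 were called in limma, 3 with no filter, 10 with the filter at 6, 3 with an ordinary two-sample test, 3 without both KO 3 and WT 2, and 1 to 140 with 1 array left out, the highest without KO 3. With the replicate block 0 were called and 1235 had an unadjusted p under 0.05 in limma. Deviations of same-numbered arrays from their group means correlated at -0.09, -0.08 and -0.14. These values carry no test and cannot show whether the labels' numbers pair the mice. The block changed no call among the p53 targets but ended those of Aurka, Kif20a, Top2a, Nuf2 and Lamtor2 (each at a limma adjusted p of 0.116). Of 366 values of named genes outside the 8, 326 kept direction and side, 35 lost a call, 2 gained one (Ckap2 with values floored at 4, Ccna2 without KO 3) and 3 reversed. Kif20a, Top2a and Nuf2 lost their calls with no filter and with the ordinary test (adjusted p from 0.121 to 0.249). Nuf2 also lost its call with values floored at 4 (limma adjusted p = 0.241) and with every probe set tested (0.0527). Bad was 0.02 with median centring, and with 1 array left out Bok ran from -0.27 to 0.04 and Rbl2 from -0.02 to 0.27. The cause of these changes was not tested. Counts by unadjusted p and by groups apart were added after seeing the data. Phlda3 and Cdkn1a lay near the filter level of 4 in KO, and the KO values of Zmat3 were tied, which limits what their differences can show.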
